A study of Mus musculus with 12 samples.

Results

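The genes described here encode the enzymes of glycolysis and of the pentose phosphate pathway in mouse bone marrow macrophages, with the 2 glucose transporters Slc2a1 and Slc2a3 and the enzymes that regulate or adjoin both routes. A fixed list of 33 gene symbols chose the members, and all 33 were found among the 56832 gene entries of the count table and passed the filter on low counts. The list selects by symbol alone and uses no value threshold. RNA was sequenced from marrow cells sorted by flow cytometry as CD45 and F4/80 positive and Ly6g and Ly6c negative. The 12 libraries formed 4 groups of 3, non-leukemic and leukemic mice of each sex. Leukemic mice had received transplanted cells of a model of blast crisis chronic myeloid leukemia (bcCML) and were sampled late in the disease, at day 11, whereas the labels call the other mice healthy and give them no transplant. The labels give neither strain, age nor the driver genes of the leukemia, and they do not say whether the replicates were separate animals, so each p-value measures the spread between these libraries.

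Glycolysis breaks glucose down to pyruvate in the cytosol, and several of its steps can be carried out by alternative isoenzymes, each from its own gene. Glucose enters through transporters of the GLUT family, is trapped by hexokinase, and is committed to the pathway by phosphofructokinase, the main point of control. The pentose phosphate pathway branches off glucose 6-phosphate. Its oxidative arm yields NADPH, which macrophages and neutrophils use for the respiratory burst and for glutathione reduction, and its non-oxidative arm interconverts sugars and supplies ribose. Macrophages are known for raising glycolysis when activated by inflammatory signals, and red cells for living on glycolysis alone.

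Total counts per library ran from 16911827 to 30014855, and a count of 0 allows up to 3 counts, or 0.1 to 0.177 CPM, in counting error alone (CPM are counts scaled to the library total). Besides the sorted macrophages, the libraries held transcripts of other marrow cells. A list of 10 macrophage markers took 0.117% to 0.443% of non-leukemic and 0.0487% to 0.115% of leukemic counts, and 5 of its 10 genes fell with leukemia. None of these markers was at 0 in any library, and Adgre1, the gene of F4/80, averaged 121 ± 68.1 against 52.8 ± 12.3 CPM. Erythroid genes summed to 1.11% to 1.46% against 0.0427% to 0.0971% (7 of 7 fell), and neutrophil genes to 2.69% to 6.17% against 1.18% to 2.50% (6 of 8 fell). Of the other genes of the sort, Ptprc, which encodes CD45, rose, from 347 ± 52.9 to 593 ± 222 CPM (0.64, adjusted p = 0.0238). Among the genes of the excluded markers, Ly6g had 47.9 ± 19.4 against 12.5 ± 7.31 CPM, Ly6c2 268 ± 101.4 against 201 ± 106 CPM and Ly6c1 0.295 ± 0.16 against 0.581 ± 0.506 CPM. T and NK cell genes summed to 0.00614% to 0.0162% against 0.0369% to 0.123% (8 of 8 rose). Of 5 B cell genes none passed (0.267% to 1.33% against 0.259% to 3.54%), of 4 platelet genes 1 rose and 1 fell, and of 4 dendritic cell genes 1 rose and 2 fell. In bulk libraries, a change in the share of cells of a type and a change in RNA per cell cannot be told apart. A pair of libraries stood apart. Female leukemic replicate 1 had 17891 genes detected, against 19521 to 21247 in the others, and male non-leukemic replicate 3 had the highest macrophage (0.443%) and neutrophil (6.17%) sums of its condition. Results that rest on them are given with and without both.

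The main comparison sets 6 leukemic against 6 non-leukemic libraries with sex as a term. It asks how transcripts of the glucose pathways differ in late leukemia. The libraries were sorted for marrow macrophages but, as given above, also held transcripts of other marrow cells. The glucose transporter Slc2a1, the isoenzymes Hk2, Pfkl and Pfkp, and the late enzymes Pgk1, Pgam1 and Pkm were higher in leukemic libraries. The isoenzymes Pfkm and Pfkfb4, the red cell enzyme Bpgm and 3 enzymes of the pentose phosphate pathway were lower. Over the 33 members, 9 rose (Slc2a1, Hk2, Pfkl, Pfkp, Tpi1, Pgk1, Pgam1, Pkm and Tigar), 6 fell (Pfkm, Pfkfb4, Bpgm, G6pdx, Tkt and Taldo1) and 18 did not pass (edgeR quasi-likelihood test, adjusted p under 0.05 over 15758 genes). Of all genes tested, 8.71% were called higher and 9.20% lower. In CPM, the 6 leukemic libraries lay wholly above the 6 non-leukemic ones for Slc2a1, Aldoc, Tpi1 and Pgk1, an arrangement seen in 5.05% of genes. They lay wholly below them for Bpgm, G6pdx, Tkt and Taldo1, seen in 3.63%. Here and below, overlap of levels was judged on CPM of library totals, without the TMM scaling factors (0.882 to 1.08) that the test used. Whether these genes also separate with those factors was not tested. The median log2 fold change was -0.03 over the members and -0.01 over all genes. With both libraries that stood apart left out, 15 members rose and 6 fell, and the additional calls were Slc2a3, Pfkfb3, Aldoa, Aldoc, Gapdh and Eno1. In the same setting 2421 of all genes rose and 2296 fell, against 1373 and 1449 with all libraries. Leaving out male non-leukemic replicate 3 alone, the highest library of its condition for 19 of the 33 members, gave 14 higher. Leaving out male replicate 2 or any of the 3 female non-leukemic libraries gave 5 higher, and leaving out male leukemic replicate 1 or 2 gave 3 lower.

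**Figure D1:**
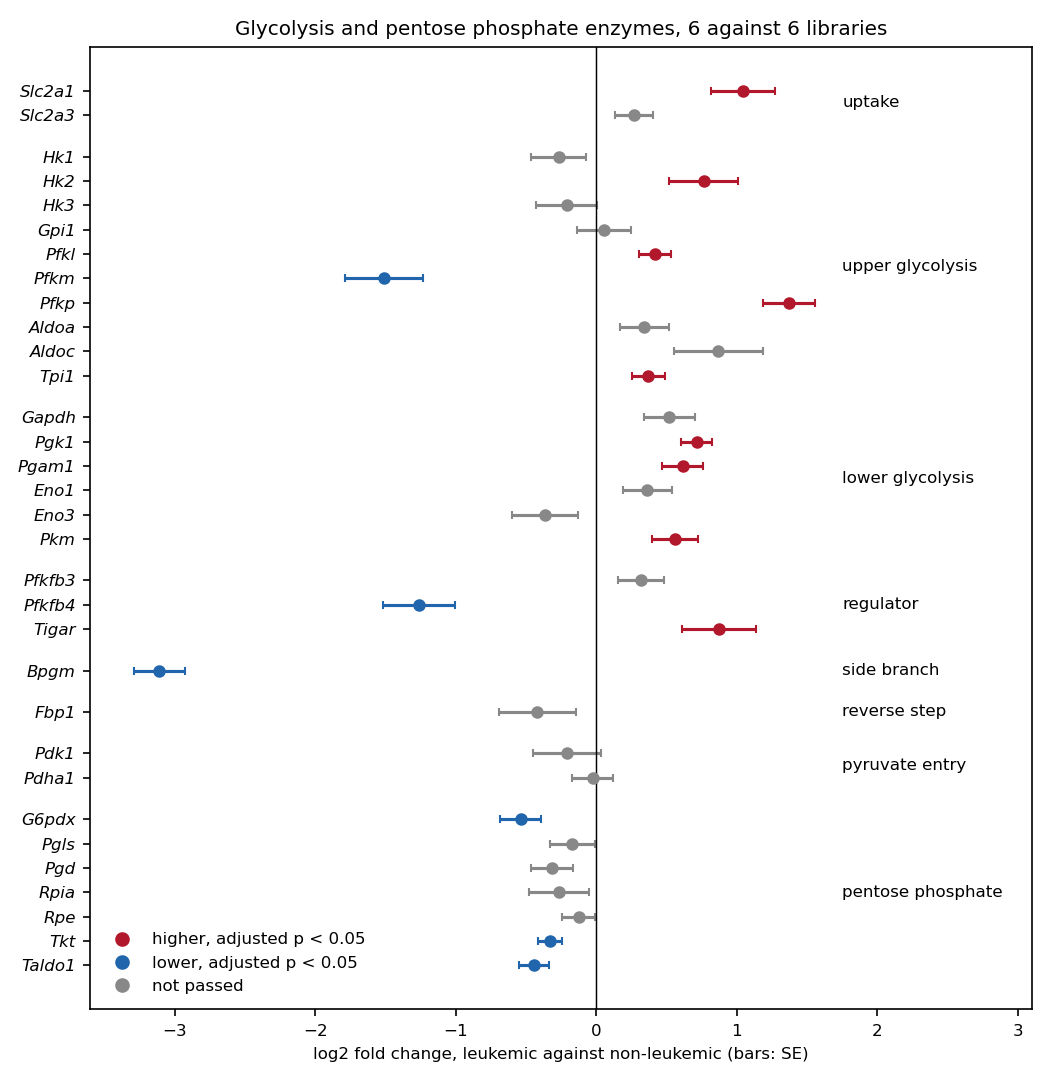
Log2 fold change of each member between leukemic and non-leukemic libraries (x axis, 6 against 6 libraries, bars are the standard error), grouped by step of the pathway. Red points rose and blue points fell at an adjusted p under 0.05, and grey points did not pass. Eno2, close to the detection limit, is left out. Most glycolysis points lie to the right of 0 and all 7 pentose phosphate points to the left, with Pfkm, Pfkfb4 and Bpgm the farthest left.

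Of the 19 genes of uptake and glycolysis proper, 8 rose and 1 fell (median log2 fold change 0.37). The counts by step are to be read against 8.71% higher and 9.20% lower over all genes. Split by step, 1 of 2 uptake genes rose. In the preparatory steps from hexokinase to triose phosphate isomerase, 4 of 10 rose and 1 fell (median 0.36). In the steps from Gapdh to pyruvate kinase, 3 of 7 rose and none fell (median 0.52), and 4 were higher at an unadjusted p under 0.05. Of all 15758 genes, 4755 had an unadjusted p under 0.05 in either direction. Of the 7 pentose phosphate genes none rose and 3 fell (median -0.32), and all 7 fold changes were negative. The 19 glycolysis genes together made up 0.495% ± 0.0945 (SD over 6 libraries) of all non-leukemic counts and 0.657% ± 0.0504 of leukemic ones. Male non-leukemic replicate 3, at 0.675%, lay inside the leukemic range of 0.604% to 0.729%, and the other 5 non-leukemic libraries reached at most 0.506%. The 7 pentose phosphate genes took 0.259% ± 0.016 and 0.212% ± 0.00884, and the conditions did not overlap. All 33 members together took 0.803% ± 0.109 and 0.897% ± 0.0588, with overlap.

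Of the 2 transporter genes, Slc2a1 rose. It encodes GLUT1, the broadly expressed transporter that responds to growth and hypoxia signals. It had 14.7 to 42.7 CPM (median 20.1) in non-leukemic and 46.7 to 58.9 CPM (median 51.5) in leukemic libraries, and the conditions did not overlap. Means were 24.8 ± 10.8 and 52.8 ± 4.88 CPM (SD), the log2 fold change was 1.04 with a standard error of 0.23 (adjusted p = 0.00693), and Slc2a1 passed in each of the 12 fits that left out a library. Slc2a3, which encodes the high-affinity transporter GLUT3, had 84.4 to 140.0 CPM and 98.4 to 152 CPM, with overlapping conditions (0.27 ± 0.14, adjusted p = 0.204). Slc2a3 passed without male non-leukemic replicate 3 (adjusted p = 0.0313), and without both libraries that stood apart it passed at 0.44 (adjusted p = 0.00501). Per kb of exon Slc2a3 remained the more abundant of the pair, at 26.6 ± 5.0 against 7.59 ± 3.32 CPM per kb in non-leukemic and 33.8 ± 4.85 against 16.2 ± 1.5 in leukemic libraries. The share of Slc2a1 in the pair went from 21.5% ± 4.55 to 32.6% ± 3.80 per kb. Its log2 ratio to Slc2a3 was 0.84 higher in leukemic libraries (exact permutation p = 0.00216, adjusted over 12 isoform pairs 0.00519). That p is the smallest that rearranging these 12 libraries can give. The conditions did not overlap, but only narrowly, with a highest non-leukemic ratio of -1.712 and a lowest leukemic one of -1.701.

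The 250 bases before the Slc2a1 start lie at chr4:119108495-119108744 on the + strand in GRCm38.p6, as RefSeq gives them. They are shown because Slc2a1 is the uptake gene that rose, and capitals mark the core letters bound by hypoxia-inducible factors, ACGTG or GCGTG on either strand.
Slc2a1: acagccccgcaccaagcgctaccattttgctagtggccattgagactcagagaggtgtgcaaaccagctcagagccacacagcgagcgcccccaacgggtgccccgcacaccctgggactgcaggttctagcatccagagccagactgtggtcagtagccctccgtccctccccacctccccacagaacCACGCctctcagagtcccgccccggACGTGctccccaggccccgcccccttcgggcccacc

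Of the 3 hexokinases, which phosphorylate glucose on entry, Hk2 rose. Hk2, the inducible isoenzyme, had 13.6 to 33.8 CPM (median 19.4) in non-leukemic and 23.3 to 45.6 CPM (median 41.8) in leukemic libraries. Female leukemic replicate 1, at 23.3, lay inside the non-leukemic range, and the other 5 leukemic libraries lay at or above 34.0. The log2 fold change was 0.76 ± 0.25 (adjusted p = 0.0486). That call was lost in 9 of the 12 fits that left out a library (adjusted p 0.0569 to 0.118); the exceptions were male non-leukemic replicate 3, male leukemic replicate 2 and female leukemic replicate 1. Without both libraries that stood apart it was 1.05 (adjusted p = 0.00391). Hk1, the constitutive isoenzyme, had 379 ± 52.4 and 339 ± 104 CPM (log2 fold change -0.27 ± 0.19, adjusted p = 0.398), and Hk3, found mainly in myeloid cells, had 292 ± 102 and 264 ± 47.0 CPM (-0.21 ± 0.22, adjusted p = 0.577). Per kb, Hk1 and Hk3 made up nearly all of the step in both conditions. The share of Hk2 was 2.23% ± 0.679 and 4.39% ± 0.402, without overlap. The Hk2 to Hk3 log2 ratio was 0.98 higher in leukemic libraries (exact permutation p = 0.00433, adjusted over pairs 0.00742) and the Hk1 to Hk2 ratio was lower, at 3.08 against 4.21 (p = 0.0108 by the same exact test, adjusted 0.0162). The ratio of Hk1 to Hk3 differed by -0.14 (exact permutation p = 0.693). Gpi1, which converts glucose 6-phosphate to fructose 6-phosphate, had 625 ± 192 and 677 ± 43.0 CPM and did not pass (0.05 ± 0.19, adjusted p = 0.891).

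Phosphofructokinase 1, the committing step, is a tetramer of subunits from Pfkl (liver type), Pfkm (muscle type) and Pfkp (platelet type), and the subunits moved apart. Pfkp had 85.7 to 174 CPM (median 115) in non-leukemic and 168 to 399.9 CPM (median 369.6) in leukemic libraries. The conditions overlapped only through female leukemic replicate 1, at 168 CPM, and male non-leukemic replicate 3, at 174 CPM, and the remaining leukemic libraries lay at 305 or above. The log2 fold change was 1.37 ± 0.19 (adjusted p = 0.00031), the most positive of the members, and 1.67 without both of those libraries. Pfkl had 171 to 214 CPM (median 194) and 169.6 to 342 CPM (median 287). Female leukemic replicate 1 lay just under every non-leukemic library and the other 5 leukemic libraries above them all, and the log2 fold change was 0.42 ± 0.12 (adjusted p = 0.0253). The Pfkl call was lost without male non-leukemic replicate 2 or female non-leukemic replicate 2 (adjusted p 0.061 to 0.0656). Pfkm went the other way. It had 159, 74.7 and 43.1 CPM in male and 139, 119 and 135 CPM in female non-leukemic libraries, against 44.5, 46.4 and 45.2 CPM in male and 21.6, 53.6 and 34.7 CPM in female leukemic libraries. Of the non-leukemic libraries male replicate 3 alone lay inside the leukemic range. The log2 fold change was -1.51 ± 0.28 (adjusted p = 0.00237). Pfkm and Pfkp passed in each of the 12 fits that left out a library.

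**Figure D2:**
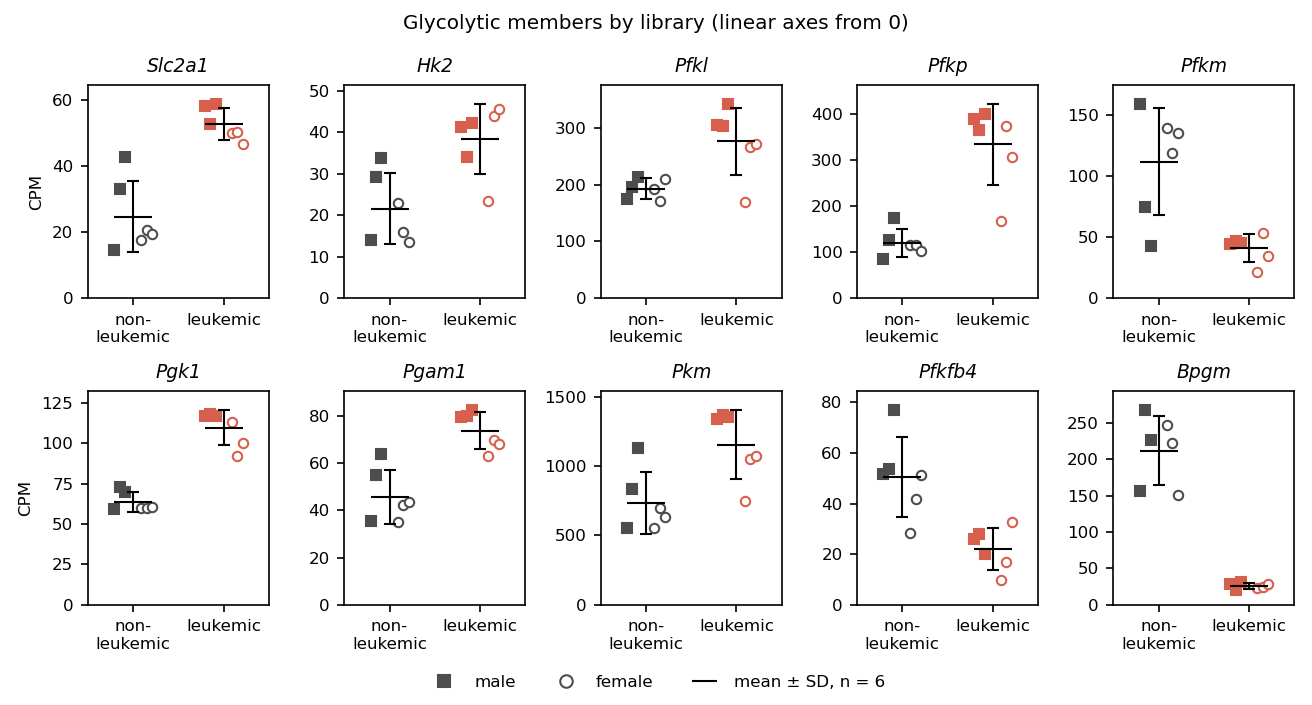
CPM of 10 glycolytic members in each library (squares male, circles female; grey non-leukemic, red leukemic; bars are the mean ± SD of 6 libraries, and axes start at 0). Slc2a1 and Pgk1 separate the conditions upwards and Bpgm downwards. In Pfkp, Pfkl and Pkm the lowest leukemic point is female replicate 1.

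Per kb, the step as a whole had 117 ± 7.45 CPM per kb in non-leukemic and 165 ± 38.9 in leukemic libraries. Pfkl held nearly the same share in both, 44.4% ± 4.88 and 45.2% ± 3.03. Pfkm went from 31.5% ± 11.4 to 8.23% ± 0.995 and Pfkp from 24.1% ± 6.97 to 46.6% ± 2.34, neither with overlap. Among non-leukemic libraries, male replicate 3 came nearest to the leukemic mix, at 12.8% Pfkm and 36.0% Pfkp, and female leukemic replicate 1 fell in with the other leukemic libraries, at 7.85% and 42.6%. The Pfkm to Pfkp log2 ratio went from -0.19 ± 1.04 to -3.02 ± 0.14, a difference of -2.83. Pfkl to Pfkm differed by 1.86 and Pfkl to Pfkp by -0.97. All 3 ratios separated the conditions without overlap, each at the smallest exact permutation p of 0.00216 (adjusted over pairs 0.00519). For Pfkl to Pfkm the margin was narrow, with a highest non-leukemic ratio of 2.305 and a lowest leukemic one of 2.316. Male non-leukemic replicate 3 also had the lowest erythroid (1.11%) and the highest neutrophil (6.17%) and macrophage (0.443%) marker sums of its condition. Between the conditions, erythroid, neutrophil and macrophage sums were lower in leukemic libraries and T and NK cell sums higher, as given above. The part of other cell types in the subunit shift was not tested.

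**Figure D3:**
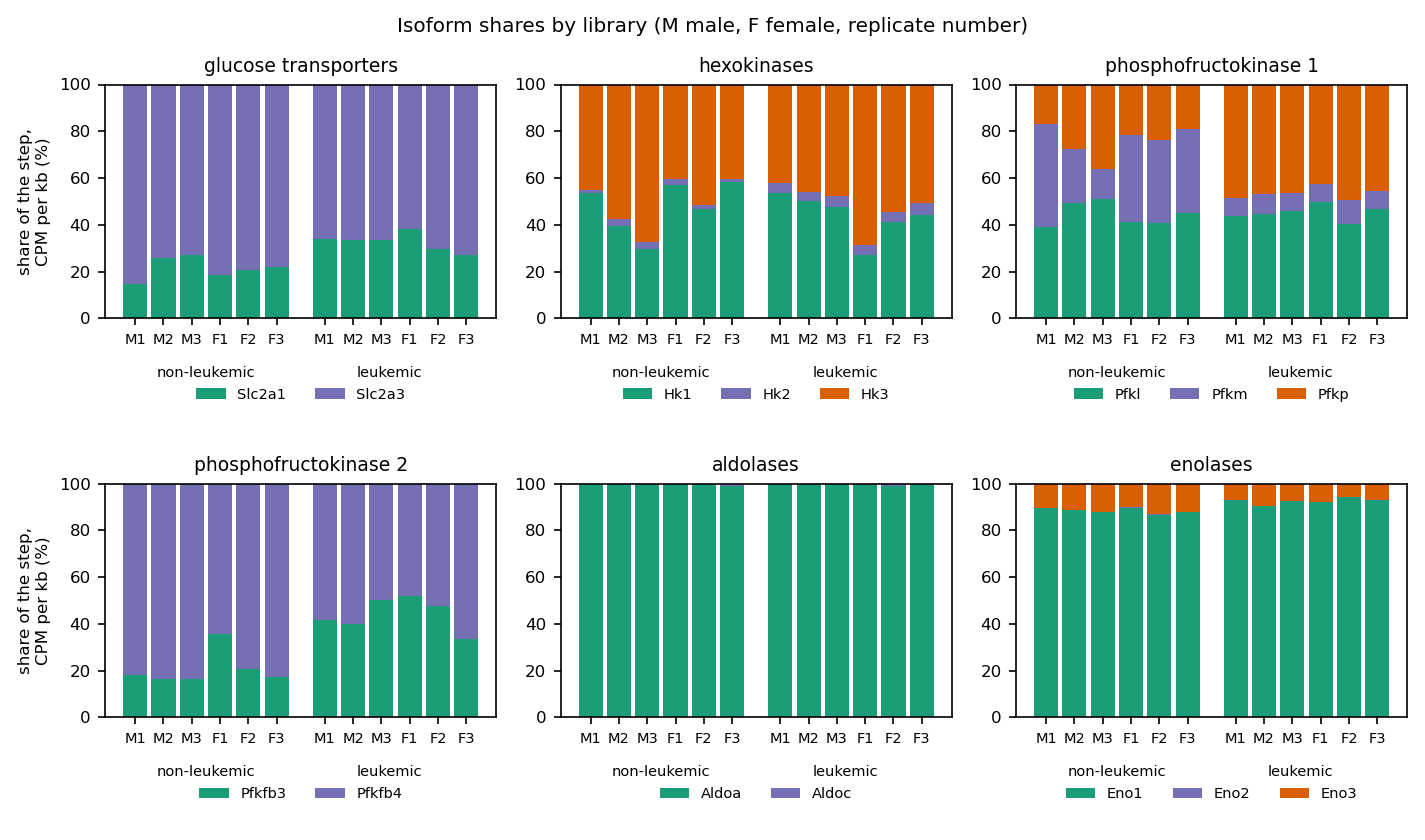
Share of each isoform in the summed CPM per kb of its step (y axis, percent) in each library, with non-leukemic libraries on the left and leukemic ones on the right of each panel. In the phosphofructokinase 1 panel the Pfkm band narrows from 31.5% to 8.23% and the Pfkp band widens from 24.1% to 46.6% on average; Aldoa fills at least 99.1% of the aldolase panel.

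The windows of 250 bases before the starts of the 3 subunit genes are shown because their levels moved in opposite directions. In GRCm38.p6 the RefSeq windows lie at chr13:6648772-6649021 on the - strand for Pfkp, at chr10:78009808-78010057 on the - strand for Pfkl, and at chr15:98092339-98092588 and chr15:98108221-98108470 on the + strand for 2 of the 4 annotated starts of Pfkm. All are written 5′ to 3′ in the direction of the gene. Capitals mark the hypoxia-inducible factor core (ACGTG or GCGTG), the E-box CACGTG, which contains that core, and the GATA motif (AGATAA or TGATAA), each on either strand.
Pfkp: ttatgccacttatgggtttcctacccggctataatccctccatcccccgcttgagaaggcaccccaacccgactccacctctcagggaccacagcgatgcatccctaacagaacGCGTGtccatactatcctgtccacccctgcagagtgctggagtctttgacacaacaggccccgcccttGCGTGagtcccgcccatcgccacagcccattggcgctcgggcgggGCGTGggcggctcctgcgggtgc
Pfkl: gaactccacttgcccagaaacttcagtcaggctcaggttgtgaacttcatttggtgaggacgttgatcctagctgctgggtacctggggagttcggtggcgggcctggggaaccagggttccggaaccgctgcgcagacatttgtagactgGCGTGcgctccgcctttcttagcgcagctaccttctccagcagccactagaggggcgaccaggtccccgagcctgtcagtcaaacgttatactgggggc
Pfkm, upstream start: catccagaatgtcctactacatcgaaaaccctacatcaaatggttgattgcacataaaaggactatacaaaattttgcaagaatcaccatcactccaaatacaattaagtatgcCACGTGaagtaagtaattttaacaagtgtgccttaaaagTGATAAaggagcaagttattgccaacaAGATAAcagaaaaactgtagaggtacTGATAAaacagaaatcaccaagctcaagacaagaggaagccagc
Pfkm, downstream start: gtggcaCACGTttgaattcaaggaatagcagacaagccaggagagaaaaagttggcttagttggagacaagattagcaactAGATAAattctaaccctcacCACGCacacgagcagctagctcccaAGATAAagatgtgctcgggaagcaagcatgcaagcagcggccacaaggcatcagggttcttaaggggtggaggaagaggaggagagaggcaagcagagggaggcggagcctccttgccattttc
The Pfkp window held 3 matches of the hypoxia core and the Pfkl window 1, and neither held a GATA match. The upstream Pfkm window held 1 core site, the E-box, which reads as the core on both strands, and 3 GATA matches. The downstream window shown held 2 core matches and 2 GATA matches. Of the 2 Pfkm windows not shown, the one at chr15:98108306-98108555 held 1 core and 1 GATA match and the one at chr15:98111810-98112059 held none. Over all members, 25 of the 32 genes with a RefSeq window held the hypoxia core in at least 1 window, against 41.5% of all genes with windows of the same length. The core was present for 7 of 9 members that rose, 5 of 6 that fell and 13 of 17 that did not pass. The E-box was found in 2 of 32 (6.86% of all genes), GATA in 6 (18.8%), and the antioxidant response core TGACNNNGC in 4 (11.5%). Member windows were also richer in G and C, with a median of 59.2% against 52.4% over all windows. A match describes the letters of a window and is not a measured site.

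Phosphofructokinase 2 enzymes make or remove fructose 2,6-bisphosphate, which activates phosphofructokinase 1. Pfkfb3 had 16.6 to 24.9 CPM (median 17.9) in non-leukemic and 16.8 to 32.0 CPM (median 27.7) in leukemic libraries, with overlap, and did not pass (0.32 ± 0.16, adjusted p = 0.216). Pfkfb4 had 28.4 to 76.9 CPM (median 51.4) and 9.80 to 32.5 CPM (median 23.0). The lowest non-leukemic library, female replicate 1, lay under the highest leukemic one, female replicate 3. The Pfkfb4 log2 fold change was -1.26 ± 0.26 (adjusted p = 0.00441), and it passed in each fit that left out a library. Per kb the share of Pfkfb3 in the pair went from 20.8% ± 7.43 to 44.2% ± 7.01, and its log2 ratio to Pfkfb4 was 1.64 higher (exact permutation p = 0.00433, adjusted over pairs 0.00742). The summed level of the pair per kb was 18.1 ± 4.63 and 11.1 ± 3.08. Tigar, which removes the same activator and is known for turning glucose towards the pentose phosphate pathway, had 3.04 to 10.3 CPM (median 4.58) and 6.29 to 14.3 CPM (median 10.3). The conditions overlapped. Tigar rose, by a log2 fold change of 0.87 ± 0.26 (adjusted p = 0.0358), a call lost in 7 of the 12 fits that left out a library (adjusted p 0.0535 to 0.0837).

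Aldolase and triose phosphate isomerase split the hexose and bring both products into the lower pathway. Aldoa held nearly all aldolase transcripts per kb. It had 454 to 809.9 CPM and 676 to 903 CPM, overlapping through male non-leukemic replicate 3, and did not pass (0.34 ± 0.18, adjusted p = 0.214). Aldoc, an isoenzyme best known from the brain, had 1.36 to 4.73 CPM and 5.54 to 7.54 CPM. All leukemic libraries lay above all non-leukemic ones, but the log2 fold change of 0.87 ± 0.31 did not pass (adjusted p = 0.0763). With that library left out, Aldoa (adjusted p = 0.0236) and Aldoc (adjusted p = 0.0471) passed. Tpi1 had 369 to 492 CPM (median 444) and 516 to 676 CPM (median 611), with no overlap. It rose by a log2 fold change of 0.37 ± 0.12 (adjusted p = 0.0436), a call lost in 8 of the 12 fits that left out a library (adjusted p 0.0567 to 0.0853).

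Among the enzymes that yield ATP and pyruvate, Pgk1, Pgam1 and Pkm rose. Pgk1, the first ATP-producing kinase of the pathway, had 59.1, 72.8 and 69.9 CPM in male and 59.9, 59.7 and 60.3 CPM in female non-leukemic libraries. In leukemic libraries it had 117, 118 and 117 CPM in males and 113, 92.4 and 100.2 CPM in females. The conditions were well apart, and the log2 fold change was 0.72 ± 0.11 (adjusted p = 0.00071). Pgam1, which moves the phosphate within phosphoglycerate, had 34.9 to 63.8 CPM (median 42.8) and 63.0 to 82.4 CPM (median 74.7). The lowest leukemic library, female replicate 1, lay just under male non-leukemic replicate 3. Its log2 fold change was 0.61 ± 0.15 (adjusted p = 0.0111), and Pgk1 and Pgam1 passed in each of the 12 fits that left out a library. Pkm, pyruvate kinase of most tissues, had 551 to 1133 CPM (median 665) and 746 to 1370.4 CPM (median 1206), and the conditions overlapped with, but not without, the libraries that stood apart. It rose by a log2 fold change of 0.56 ± 0.16 (adjusted p = 0.0298), which was 0.80 without both of them. The Pkm call was lost in 5 of the 12 fits that left out a library (adjusted p 0.0508 to 0.0626). The gene count does not separate the spliced forms M1 and M2 of Pkm.

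Gapdh and Eno1, often taken as reference genes, did not pass with all libraries. Gapdh, which makes NADH, had 458 to 722 CPM (median 522) and 635 to 1113 CPM (median 791), and its log2 fold change of 0.52 ± 0.18 missed the threshold (adjusted p = 0.0675). The overlap came from male non-leukemic replicate 3, at 722, and female leukemic replicate 3, at 635. Gapdh passed with either of these libraries left out (edgeR adjusted p 0.0116 to 0.0464). Eno1 had 619 ± 184 and 841 ± 92.3 CPM (0.36 ± 0.18, adjusted p = 0.19) and passed without male non-leukemic replicate 3 (adjusted p = 0.00504). Eno3, the muscle isoenzyme, had 50.4 ± 18.3 and 41.6 ± 9.76 CPM (-0.37 ± 0.23, adjusted p = 0.327). Its per kb share of the enolases went from 11.5% ± 1.19 to 7.38% ± 1.22, and the Eno1 to Eno3 log2 ratio was 0.72 higher without overlap (exact permutation p = 0.00216, adjusted over pairs 0.00519). Eno2, the neuronal isoenzyme, was close to the detection limit, with 67 counts over the 6 non-leukemic and 31 over the 6 leukemic libraries and a level of 0 in 2 and 4 of them, and no fold change is given. Over the 12 isoform pairs compared, 8 passed, 5 without overlap. Aldoa to Aldoc (exact permutation p = 0.0693), Hk1 to Hk3 (0.693), Eno1 to Eno2 (0.0931) and Eno2 to Eno3 (0.292) did not. The pairs are not independent, since within a step of 3 isoforms each ratio follows from the others. Those without overlap include every pair of Pfkl, Pfkm and Pfkp. No such count was made for pairs of other genes. Within a sex, 3 against 3 libraries cannot give an exact permutation p under 0.10, so the pairs were not tested by sex.

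Bpgm fell the most of all members. It encodes bisphosphoglycerate mutase, the enzyme of the side branch through which red cells make the regulator of hemoglobin's oxygen affinity. The level was 157, 267 and 226 CPM in male and 247, 222 and 151 CPM in female non-leukemic libraries. In leukemic libraries it was 28.0, 19.6 and 31.2 CPM in males and 23.2, 25.0 and 27.9 CPM in females. Every leukemic library was far under every non-leukemic one, and the log2 fold change was -3.11 ± 0.18 (adjusted p = 6.18e-07) and -3.05 without both libraries that stood apart. All 7 erythroid markers were lower alongside (median -4.32 on the log2 scale); the adult globin Hbb-bs had 6988 ± 1241 and 306 ± 115 CPM. The red cell and liver pyruvate kinase Pklr also fell, from 55.3 ± 26.7 to 13.4 ± 2.87 CPM (-2.04 ± 0.35, adjusted p = 0.00143). The part of red cell precursors in the Bpgm result was not tested. The RefSeq window before the Bpgm start, at chr6:34476106-34476355 on the + strand of GRCm38.p6, is shown as that of the member with the largest change. It held no match of the 4 motifs searched.
Bpgm: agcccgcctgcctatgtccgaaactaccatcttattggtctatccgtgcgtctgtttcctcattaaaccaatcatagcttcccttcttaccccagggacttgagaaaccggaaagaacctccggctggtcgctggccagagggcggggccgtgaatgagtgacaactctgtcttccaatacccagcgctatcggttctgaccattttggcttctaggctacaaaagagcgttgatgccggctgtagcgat

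In the pentose phosphate pathway, the entry enzyme of the oxidative arm and the 2 sugar-transferring enzymes of the non-oxidative arm fell. G6pdx, glucose 6-phosphate dehydrogenase, had 239.6 to 446 CPM (median 270.1) in non-leukemic and 189 to 229 CPM (median 221) in leukemic libraries. The conditions did not overlap, and the log2 fold change was -0.54 ± 0.14 (adjusted p = 0.0208). Tkt, transketolase, had 691 to 782 CPM (median 735) and 464 to 685 CPM (median 647), close but without overlap (-0.33 ± 0.09, adjusted p = 0.0199). Taldo1, transaldolase, had 885 to 1103 CPM (median 965) and 703 to 856 CPM (median 734), again apart, at -0.44 ± 0.11 (adjusted p = 0.0126). Taldo1 was the most abundant member per kb in both conditions, at 716 ± 57.0 and 556 ± 44.7 CPM per kb; Gapdh followed at 367 ± 60.7 and 551 ± 107, and in leukemic libraries the 2 did not differ beyond their spread. These 3 calls were each lost without male leukemic replicate 1 or replicate 2 (adjusted p 0.0513 to 0.0762), which left no pentose phosphate gene called. G6pdx was also lost without male leukemic replicate 3, and Tkt in 8 of the 12 fits in all. They stayed called without both libraries that stood apart, at -0.38, -0.27 and -0.42.

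**Figure D4:**
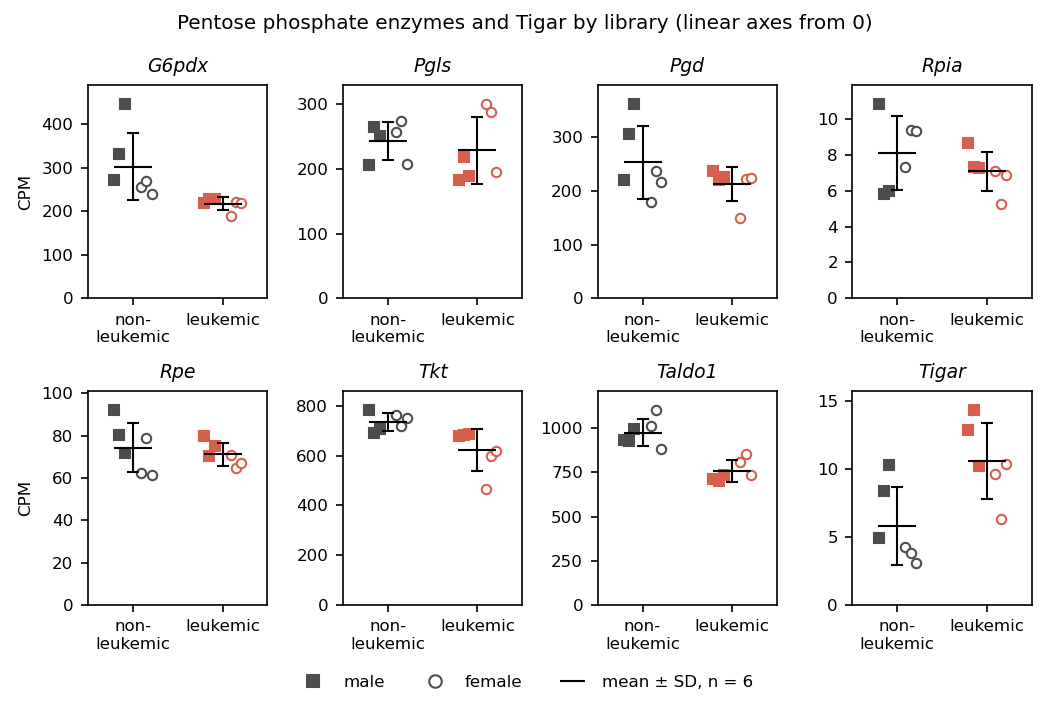
CPM of the 7 pentose phosphate members and Tigar in each library (squares male, circles female; grey non-leukemic, red leukemic; bars are the mean ± SD of 6 libraries, and axes start at 0). For G6pdx, Tkt and Taldo1 every leukemic point lies under every non-leukemic point; the highest G6pdx and Pgd points are male non-leukemic replicate 3.

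The other 4 members of the pathway did not pass. Pgd, the second enzyme that yields NADPH, had 253 ± 67.5 and 213 ± 31.6 CPM (-0.32 ± 0.15, adjusted p = 0.176). Pgls, the lactonase between the 2 dehydrogenases, had 243 ± 29.5 and 229 ± 51.9 CPM (-0.17 ± 0.16, adjusted p = 0.526). The isomerase Rpia, at 8.10 ± 2.05 and 7.08 ± 1.09 CPM, and the epimerase Rpe, at 74.4 ± 11.8 and 71.3 ± 5.45 CPM, had log2 fold changes of -0.26 and -0.13 (adjusted p = 0.457 and 0.521). For all 4 the conditions overlapped. Neutrophil markers, at 3.96% ± 1.43 of non-leukemic and 1.73% ± 0.492 of leukemic counts, and 5 of 6 proliferation markers, at 0.249% ± 0.0444 and 0.175% ± 0.0281, were lower alongside, and their part in the fall of G6pdx, Tkt and Taldo1 was not tested. The T and NK cell genes and 4 of 6 basophil, eosinophil and mast cell genes, which summed to 0.439% ± 0.105 and 0.827% ± 0.443, were higher alongside the glycolysis genes, and their part there was not tested either.

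At the exits of the pathway, Fbp1, which reverses the phosphofructokinase step in gluconeogenesis, had 7.99 ± 2.51 and 6.20 ± 1.49 CPM (-0.42 ± 0.28, adjusted p = 0.34). Pdha1, a subunit of pyruvate dehydrogenase, had 107 ± 12.7 and 113 ± 28.4 CPM (-0.03 ± 0.15, adjusted p = 0.934), and Pdk1, the kinase that switches that complex off, had 81.5 ± 30.4 and 74.3 ± 15.7 CPM (-0.21 ± 0.24, adjusted p = 0.624). In none of these did the conditions separate.

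The leukemia effect was also estimated within each sex, 3 libraries against 3. In males 2 members rose, Pfkp (1.41 ± 0.27, adjusted p = 0.00921) and Pgk1 (0.65 ± 0.16, adjusted p = 0.0291), against 3.34% of all genes. In males 4 fell, Pfkfb4, Bpgm, G6pdx and Taldo1, against 4.04%. In females 5 rose, Slc2a1 (1.35 ± 0.31, adjusted p = 0.0211), Pfkp, Pgk1, Pgam1 and Tigar, against 3.84%, and 2 fell, Pfkm (-1.86 ± 0.38, adjusted p = 0.0119) and Bpgm, against 4.59%. These lists differ, but no member passed the test of the difference between the sexes. The interaction called 0 of 33 members and 0% of all genes with edgeR. An unadjusted p under 0.05 was found for 4 members and for 925 of all 15758 genes. DESeq2 called 23 genes and limma-voom none, with no member among them. Of those 4 members, Hk3 had a log2 fold change of -0.71 ± 0.25 in males and 0.28 ± 0.24 in females, and Gpi1 -0.36 ± 0.22 and 0.47 ± 0.22. Fbp1 had -0.95 ± 0.34 and 0.11 ± 0.33, and Eno2 rested on few counts. All of the interaction p-values of these genes were 0.819 after adjustment. Without both libraries that stood apart, 11 members rose in males and 11 in females. The share of all genes by sex was not counted in that setting, so the percentages above do not apply to it. Over both sexes, calls over all genes also grew there, from 1373 to 2421 higher and from 1449 to 2296 lower. Leaving out 1 library at a time gave 1 to 7 higher and 1 to 4 lower in males, and 1 to 8 higher and 1 to 3 lower in females; male non-leukemic replicate 3 gave the 7 in males and male non-leukemic replicate 1 the 8 in females.

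**Figure D5:**
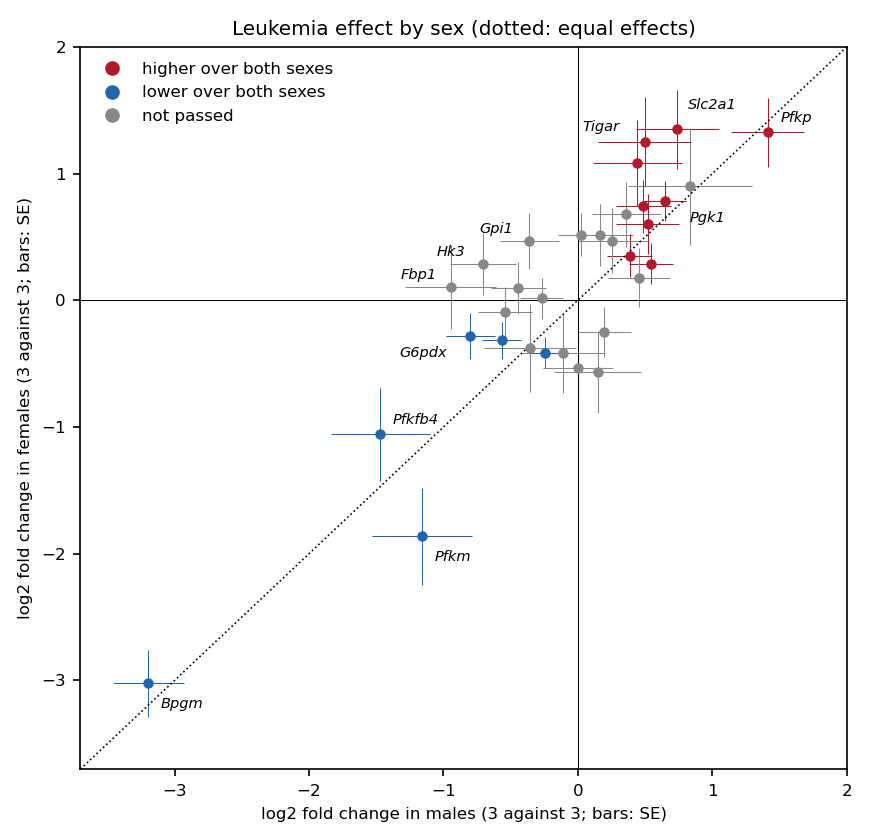
Log2 fold change of each member with leukemia in males (x axis) and females (y axis), 3 against 3 libraries each, with standard errors as bars. The dotted line marks equal effects, and colours give the call over both sexes. Bpgm, Pfkm, Pfkfb4 and Pfkp lie in the same direction in both sexes, and Hk3, Gpi1, Fbp1, Pgls and Rpe lie left of 0 in males and above 0 in females.

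The neighbours of these pathways were read from 6 further lists. Of 14 other isoenzymes and entry enzymes tested none rose and 4 fell: the insulin-responsive transporter Slc2a4 (12.6 ± 7.13 to 0.24 ± 0.319 CPM, adjusted p = 0.000277), Pklr, Adpgk, which phosphorylates glucose with ADP (-0.98 ± 0.19, adjusted p = 0.00304), and Slc2a8 (-0.85 ± 0.20, adjusted p = 0.0117). Of 16 genes of pyruvate and lactate fate 2 rose and 6 fell. Ldha, which turns pyruvate into lactate, went from 1105 ± 95.1 to 1893 ± 207 CPM without overlap (0.70 ± 0.11, adjusted p = 0.000953). The lactate and pyruvate carrier Slc16a1 (-0.95 ± 0.18, adjusted p = 0.00314), pyruvate carboxylase Pcx (-1.71 ± 0.31, adjusted p = 0.00213) and Pck2 (-0.79 ± 0.14, adjusted p = 0.00212) fell.

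Among 16 NADPH and glutathione partners none rose and 5 fell (median -0.33). Log2 fold changes were -1.32 ± 0.15 for Gclm, a subunit of the enzyme that starts glutathione synthesis (adjusted p = 6.9e-05), -1.08 ± 0.22 for its partner Gclc, -1.73 ± 0.32 for the NADPH-using quinone reductase Nqo1 and -0.97 ± 0.18 for glutathione peroxidase Gpx1. Among 17 regulators of glycolysis 4 rose and 1 fell. Hif1a, a hypoxia-inducible factor, had 65.8 ± 13.6 and 148 ± 47.5 CPM (1.06 ± 0.13, adjusted p = 0.000145); Mycn (0.74), Myc (0.50) and Egln3 (0.83), a hypoxia-responsive prolyl hydroxylase, were the others that rose. Of 7 further pentose phosphate and ribose genes, Prps2, which makes the ribose donor for nucleotides, rose (0.69 ± 0.13, adjusted p = 0.00314) and the ribokinase Rbks fell (-0.83 ± 0.20, adjusted p = 0.0117). Of 18 genes of the tricarboxylic acid cycle, 1 rose (Idh2, 0.44) and 1 fell (Dlst, -0.50). The counts of these lists are to be read against 8.71% and 9.20% of all genes.

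Some members share sequence with other genes, which can blur their counts. Of the 33, 10 had at least 10% of their 50-base stretches in transcripts of other genes, led by Pgk1 (53.9%), Pgam1 (36.2%), Eno1 (26.0%), Pkm (25.8%) and Gapdh (25.1%). The near-identical copies examined held few counts themselves, the largest being Eno1b with 1.26% of the Eno1 count. G6pdx shares 16.9% of its stretches, mainly with its neighbour Ikbkg. Pfkp shares 17.4% of its exon length with Pitrm1, and the library kit does not keep strand. How reads that match several genes were counted is not given in the sources used here. Few counts in a copy therefore do not show how many reads a member gained or lost.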

How the data were processed

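RNA of sorted marrow macrophages was sequenced in 12 libraries, 3 in each of the 4 groups that the labels' sex and condition give. The authors deposited unnormalized gene counts, with 1 column per library. Per the submitters' processing notes, the aligner STAR 2.7.9a, featureCounts from Subread 2.0.1 and the build GRCm39 were used, with bcl2fastq 2.19.1, fastp 0.23.1, R 4.0.2 and DESeq2 1.28.1; settings and order are not given in the sources used here. Per the labels' protocols, 1 ng of RNA was amplified as cDNA before library construction, without molecular identifiers, so floors cover counting error only.

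CPM were computed here from library totals. Genes were filtered with filterByExpr, scaled by TMM (factors 0.882 to 1.08) and tested with the two-sided quasi-likelihood test of edgeR 4.0.16 (R 4.3.3), with sex as a term, or as contrasts of 4 group means for each sex and the interaction. The Benjamini-Hochberg adjustment covered 15758 genes, and SE is the log2 fold change divided by the square root of F. Isoform ratios used log2 CPM with a prior count of 2 and a two-sided exact permutation test, adjusted over 12 pairs. Levels per kb used exon lengths of the GENCODE M21 basic annotation. Promoter windows came from RefSeq (GRCm38.p6), matched by symbol for 32 of 33 members.

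Members and lists were chosen with earlier results of these data known. All 33 members are named; of each neighbouring list, the up to 4 genes with the lowest p; of other cell types, the markers listed first and the gate genes. Alternatives were RLE size factors, DESeq2 1.42.0, limma-voom (limma 3.58.1), no filter on low counts, 5 CPM in 3 libraries, no sex term, a replicate block, libraries of 1 sex, leaving out each library, and leaving out female leukemic replicate 1 with male non-leukemic replicate 3. No library was a copy of another (lowest chi-square per degree of freedom within a group 22.6). The scripts were tested on simulated data. List symbols Rpel1 and Ahsp were not matched.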

Additional observations from a re-analysis of the deposited data

Results flagged for a closer look

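In each condition the log2 CPM of every member, with a prior count of 2, was examined for outlying libraries. A library was marked where its gap to the nearest, as a share of the range of the 6 libraries, exceeded Dixon's 95% critical value. This marked 7 of 66 sets of 6 libraries, and chance marks about 1 in 20. All 7 were in female leukemic replicate 1, which was the lowest leukemic library each time. Hk1 had 134 CPM there against 342 to 422 in the other leukemic libraries. Pfkl had 169.6 against 267 to 342, and Pfkp 168 against 305 to 399.9. G6pdx had 189 against 219 to 229, and Tkt 464 against 599.9 to 685. Pgd had 149.9 against 221 to 237. Pdha1 had 58.1 against 112 to 136. The same library was the lowest of its condition for 15 of the 33 members and the highest for 4 (Aldoa, Gapdh, Pgls and Fbp1), and it had the fewest genes detected, 17891. Of the leukemic libraries it also had the highest B cell (3.54%), neutrophil (2.50%), macrophage (0.115%) and erythroid (0.0971%) marker sums. Its dendritic cell (0.00693%) and proliferation (0.127%) sums were the lowest. The B cell sum was also high in female leukemic replicate 3, at 2.91%. The part of the gene number or of these sums in the marked values was not tested.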

How the results depend on the processing

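Slc2a1, Pfkm, Pfkp, Pfkfb4, Pgk1, Pgam1 and Bpgm kept their direction and call in all 20 alternatives. The members called higher, 9 with all libraries, were 15 (21 called in all) without both libraries that stood apart and 5 to 14 with 1 library left out; those called lower were then 3 to 6 and the total 9 to 20. In males the higher count was 11 without both, 1 with a replicate block and 1 to 7 with 1 library left out, and the lower count 1 to 4. In females the higher count was 3 with no low-count filter, 11 without both, 3 with the block and 1 to 8, and the lower count 5 with DESeq2, 4 without both and 1 to 3. Over all genes 2421 rose and 2296 fell without both, and 998 to 1958 rose and 1025 to 1952 fell with 1 library left out.

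Direction turned where log2 fold changes lay near 0. Hk3 was 0.0096 without both (-0.29 to -0.015 with 1 library left out). Gpi1 ranged from -0.0054, without female non-leukemic replicate 1, to 0.24. Pdha1 was 0.0015 with no filter and 0.11 without both, and ranged from -0.093 to 0.11: it was 0.016 without male non-leukemic replicate 1, 0.0047 and 0.065 without female non-leukemic replicates 1 and 3, and 0.11 without female leukemic replicate 1. The Hk1 to Hk3 ratio ranged from -0.36 to 0.079, the latter without female leukemic replicate 1. The cause was not tested.

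The labels do not say that replicate numbers pair the libraries, and whether they do was not tested. Deviations of same-numbered libraries of the 2 conditions had correlations of -0.0317 to 0.0782 over 6 pairs. Of the 6 non-leukemic libraries 4 matched best with their own number, every female library among them. With the number as a replicate block 12 members passed, without Hk2, Tpi1 and Tigar, and 0 of 12 isoform pairs; 64 arrangements give no p under 0.0312, and the lowest p adjusted over the pairs was 0.0625. Low counts limit Eno2, Aldoc, Tigar, Rpia and Fbp1.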
